A study of Mus musculus with 8 samples.

Results

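Haem and iron recycling was followed through 10 genes in macrophages sorted from mouse liver: the scavenger receptor gene Cd163, the haem breakdown genes Hmox1, Blvra and Blvrb, the metal exporter and transporter genes Slc40a1 and Slc11a1, the ferritin genes Fth1 and Ftl1, and the iron uptake genes Tfrc and Steap3. The members were chosen by symbol for their known roles. They and the gene lists below were chosen with earlier results of these data known. All 10 members were found among the 35906 genes with estimated counts and in the deposited FPKM table. They were also among the 15212 genes with enough counts to be tested. The study measured RNA in 8 libraries, 4 from BALB/c mice given carbon tetrachloride (CCl4), a liver toxicant used to produce fibrosis, and 4 from BALB/c mice given vehicle. Both groups are wild-type in the labels, and in both the liver was digested with collagenase, red cells were lysed, hepatocytes were removed by slow centrifugation and live CD45+ F4/80+ cells (CD31- in the series' design text) were sorted. The sources used here do not give the dose and length of treatment, the age and sex of the mice, or whether each library comes from its own mouse. The p-values therefore reflect how these libraries scatter, which may be technical.

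Macrophages of the liver and spleen engulf old red cells and take up haemoglobin, which they strip of haem. Haem oxygenase opens the haem ring and frees iron, and biliverdin reductase turns the biliverdin left behind into bilirubin. The iron is either stored inside ferritin or sent back to plasma through ferroportin. Iron regulatory proteins tune part of this pathway after transcription by binding hairpins called iron-responsive elements: a hairpin in the 5′ UTR blocks translation of ferritin mRNA when iron is scarce, and hairpins in the 3′ UTR protect the transferrin receptor mRNA from decay.

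The deposited estimated counts summed to between 19489104 and 26196063 per library. Of 10 macrophage identity genes, all present in every library, 2 rose, 1 fell and 7 were not called. Lyz2, the lysozyme gene, rose (log2 fold change 1.52, edgeR adjusted p = 0.000318), as did Cd14 (0.90, adjusted p = 0.0372), and Aif1 fell (-1.02, adjusted p = 0.00907); Cd14 and Aif1 were named after their values were seen. Among those not called were Adgre1, which encodes F4/80, at 1272 ± 210 CPM (counts scaled to library size; SD, n = 4) in vehicle and 1187 ± 166 in CCl4 (edgeR adjusted p = 0.768), Ptprc, which encodes CD45, at 512 ± 78.0 and 623 ± 73.8 (adjusted p = 0.289), and Csf1r, the receptor for the macrophage growth factor CSF1, at 3865 ± 1478 and 3491 ± 644 (adjusted p = 0.802). Of 10 Kupffer cell markers 9 fell, and of 10 markers of monocyte-derived macrophages 9 rose. The Kupffer markers summed to 24337 to 33006 CPM in the vehicle libraries but 6800 to 12203 in the CCl4 libraries. For the monocyte-derived markers the sums were 300.2 to 707 CPM with vehicle against 6924 to 13369 with CCl4. Vehicle 2 and CCl4 4 stood apart, with the smallest count totals and the largest numbers of detected genes, so results were also computed without both. In bulk RNA, fewer cells of a type and less RNA per cell cannot be told apart.

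Of the 10 genes, 2 rose in CCl4 and 5 fell. Fth1 and Steap3 rose, and Cd163, Slc40a1, Hmox1, Blvrb and Tfrc fell, while Blvra, Slc11a1 and Ftl1 did not pass the test. Among all genes tested, 8.93% rose and 6.26% fell by the same rule (edgeR quasi-likelihood test, adjusted p under 0.05), 15.2% in either direction. The same 7 members had 4 CCl4 libraries that did not overlap the 4 vehicle libraries, against 22.5% of all genes tested (13.0% higher and 9.49% lower). The median log2 fold change of the members was -0.40, and that of all genes tested was -0.03. Without vehicle 2 and CCl4 4, the calls were again 2 higher and 5 lower.

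**Figure D1:**
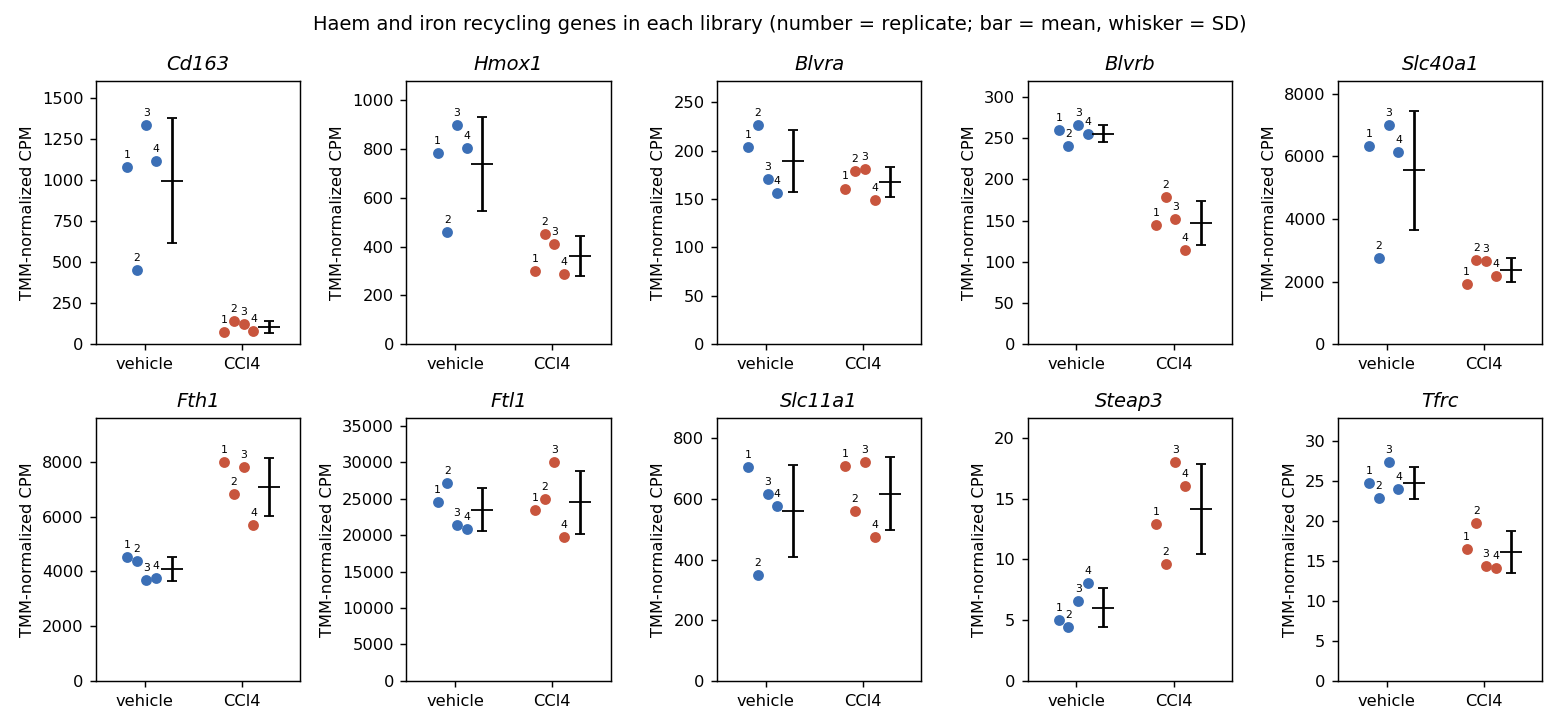
CPM scaled by TMM of each of the 10 genes in each library, with 1 panel per gene, the group on the horizontal axis and points for the 4 libraries of each group beside the group mean and SD. In the panels of Cd163, Hmox1, Blvrb, Slc40a1 and Tfrc all 4 CCl4 points lie below the vehicle points, in those of Fth1 and Steap3 all 4 lie above, and in those of Blvra, Slc11a1 and Ftl1 the groups overlap.

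Cd163, the macrophage receptor that takes up haemoglobin, had the largest change of the 10. Its gene lies on chromosome 6, 124304656 to 124330527 (mm10). Its level was 1080.3, 454, 1334 and 1113 CPM in vehicle 1 to 4 and 72.9, 142, 124 and 77.4 CPM in CCl4 1 to 4. Each CCl4 library was below each vehicle library, and vehicle 2 was the lowest of the vehicle libraries. The group means were 995 ± 378 and 104 ± 34.3 CPM (SD, n = 4), a 9.56-fold lower level in CCl4 with a log2 fold change of -3.26 (SE 0.35, 95% interval -4.01 to -2.50, edgeR adjusted p = 0.000132). In these libraries 9 of 10 Kupffer markers fell too (median log2 fold change -1.49). Their part in the falls of Cd163, Hmox1, Blvrb and Slc40a1 was not tested.

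Hmox1 encodes haem oxygenase 1, the inducible enzyme that opens the haem ring. The gene lies on chromosome 8, 75093621 to 75100589. It stood at 785, 458, 899 and 806 CPM in vehicle 1 to 4 and at 298, 449.6, 409 and 288 CPM in CCl4 1 to 4. The groups did not overlap, but vehicle 2, at 458 CPM, was just above CCl4 2, at 449.6 CPM. The means were 737 ± 192 and 361 ± 80.4 CPM, a 2.04-fold lower level (log2 fold change -1.03, SE 0.23, edgeR adjusted p = 0.0107). With vehicle 2 and CCl4 4 left out the log2 fold change was -1.11 (adjusted p = 0.0021). On the FPKM scale vehicle 2, at 42.9, lay below CCl4 2, at 51.2, so the groups overlapped there.

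Of the biliverdin reductase genes, Blvrb fell and Blvra did not pass the test. Blvrb, which reduces flavins as well as biliverdin and is on chromosome 7, 27447978 to 27466144, was at 260.3, 241, 266 and 255 CPM in vehicle 1 to 4 and at 145, 179, 152 and 114 CPM in CCl4 1 to 4. The vehicle libraries lay close together and all CCl4 libraries lay below them. Blvrb was 1.73-fold lower in CCl4, at 147 ± 26.7 CPM against 256 ± 10.7, a log2 difference of -0.79 (SE 0.16, edgeR adjusted p = 0.00506). Blvra, the main bilirubin-forming reductase of adults, on chromosome 2, 127070665 to 127097084, was at 204, 227, 171 and 156 CPM in vehicle and at 161, 179, 181 and 149 CPM in CCl4. The groups overlapped, and the means of 189 ± 31.8 and 168 ± 15.3 CPM differed by a log2 fold change of -0.18, with a 95% interval of -0.52 to 0.16 (adjusted p = 0.520).

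A ratio taken inside a library does not depend on how libraries are scaled. Per length, on the FPKM scale, Blvrb stood to Blvra as 1.38, 1.22, 1.59 and 1.78 in vehicle 1 to 4 and as 0.996, 1.10, 0.851 and 0.861 in CCl4 1 to 4. Blvrb was thus above Blvra in every vehicle library, and the CCl4 ratios lay around or under 1 with no overlap (1.496 ± 0.245 and 0.953 ± 0.120, SD, n = 4, described without a test).

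Slc40a1 encodes ferroportin, the only known cellular iron exporter, and lies on the minus strand of chromosome 1, 45908068 to 45926523. Its level was 6326, 2762, 7006 and 6124 CPM in vehicle 1 to 4 and 1919, 2704, 2667 and 2188 CPM in CCl4 1 to 4. Vehicle 2 was far below the other vehicle libraries and just above CCl4 2, so the groups were separated by a narrow gap. The means were 5554 ± 1899.7 and 2369 ± 381 CPM, a 2.34-fold lower level (log2 fold change -1.23, SE 0.27, 95% interval -1.82 to -0.64, edgeR adjusted p = 0.00939). Without vehicle 2 and CCl4 4 the log2 fold change was -1.42 (adjusted p = 0.000907). On the FPKM scale vehicle 2, at 126, lay below CCl4 2, at 137, so the groups overlapped there.

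Slc11a1 encodes NRAMP1, which moves iron and manganese out of the phagosome. BALB/c mice are known to carry the allele of this gene that leaves the protein without function, so the values describe its transcript and not its transport. The gene lies on chromosome 1, 74375195 to 74386062. It was at 703, 347.5, 617 and 575 CPM in vehicle and at 709, 560.3, 723 and 476 CPM in CCl4. Vehicle 2 was again the lowest library, and the groups overlapped. The means were 561 ± 152 and 617 ± 119.6 CPM, a log2 fold change of 0.14 with a 95% interval of -0.36 to 0.63 (edgeR adjusted p = 0.751), and the sign turned without vehicle 2, at -0.035.

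**Figure D2:**
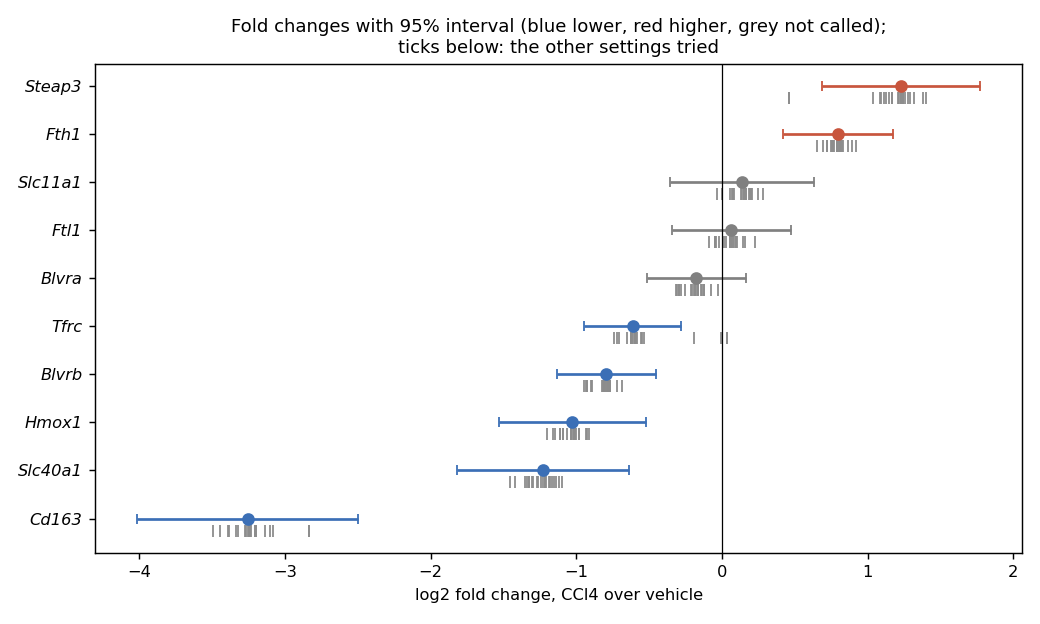
Log2 fold change of each of the 10 genes, CCl4 against vehicle, with 1 row per gene, its value with the 95% interval on the horizontal axis (blue lower, red higher, grey not called) and grey ticks below for the value under each other setting tried. The intervals of Cd163, Slc40a1, Hmox1, Blvrb and Tfrc lie below 0, those of Fth1 and Steap3 lie above 0, and those of Blvra, Slc11a1 and Ftl1 span it, while the ticks of Tfrc, Ftl1 and Slc11a1 reach both sides of 0.

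Ferritin is a shell of heavy chains, which oxidise iron for entry, and light chains, which help form the iron core. The mRNAs of both chains carry an iron-responsive element in the 5′ UTR, shown here because it is the regulatory sequence the chains have in common. The 30 bases that hold each match are printed 5′ to 3′ from the GENCODE M21 transcript, with the loop bases of the hairpin in capitals. The match itself is shorter, and the bases on either side of it were not searched. The first is Fth1-201, at chr19:9982732-9982761 on the plus strand of mm10. The second is Ftl1-201, at chr7:45459778-45459807 on the minus strand.
Fth1: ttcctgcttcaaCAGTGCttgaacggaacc
Ftl1: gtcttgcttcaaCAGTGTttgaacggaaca
The search asked for a C, any 5 bases, the loop CAGTGN with a last base other than G, and 5 bases able to pair with the first 5, G with T pairs included, on the sense strand. Such a match was found in a 5′ UTR of 23 of 21877 protein-coding genes (0.105%). A match describes the letters and not binding.

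The heavy chain gene Fth1, on chromosome 19, 9980598 to 9985098, was at 4522, 4383, 3679 and 3749 CPM in vehicle 1 to 4 and at 8016, 6834, 7805 and 5685 CPM in CCl4 1 to 4. Each CCl4 library was above each vehicle library. Fth1 rose 1.74-fold, from 4083 ± 431 to 7085 ± 1066 CPM, a log2 fold change of 0.80 with a 95% interval of 0.42 to 1.17 (SE 0.17, edgeR adjusted p = 0.00913). In the same libraries 9 of 10 markers of monocyte-derived macrophages rose, and their part in the rises of Fth1 and Steap3 was not tested. The light chain gene Ftl1, on the minus strand of chromosome 7, 45457944 to 45459884, was at 24515, 27181, 21457 and 20789 CPM in vehicle and at 23398, 24976, 30101 and 19704 CPM in CCl4. The groups overlapped widely, with both the highest and the lowest library in CCl4. The means were 23485 ± 2949.9 and 24545 ± 4313 CPM, a log2 fold change of 0.06 with a 95% interval of -0.35 to 0.47 (adjusted p = 0.869), and the sign of this small value depended on the scaling.

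Within libraries, Fth1 stood to Ftl1 per length (FPKM) as 0.185, 0.163, 0.170 and 0.179 in vehicle 1 to 4 and as 0.354, 0.280, 0.265 and 0.293 in CCl4 1 to 4. The vehicle ratios kept within a narrow band and every CCl4 ratio was above it (0.174 ± 0.0098 and 0.298 ± 0.0388, SD, n = 4, described without a test). Both chains together took 2.82, 3.46, 2.66 and 2.62% of all counts in the vehicle libraries, from 1 to 4, and 2.89, 3.12, 3.21 and 2.75% in the CCl4 libraries. The groups thus stood apart in the ratio of the chains and overlapped in their summed share of the counts. Ferritin has processed copies in the mouse genome, and summing every gene whose symbol begins with Fth or Ftl changed none of the calls of the 10 members.

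**Figure D3:**
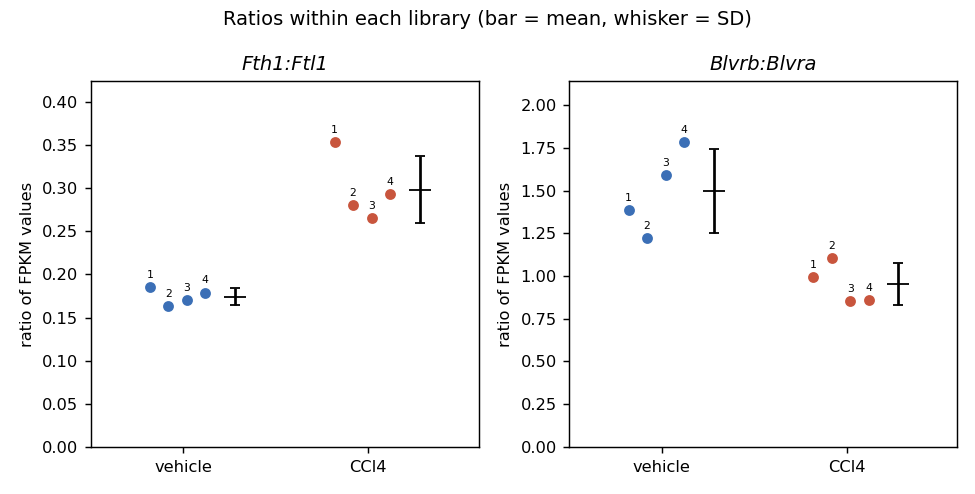
FPKM ratio of Fth1 to Ftl1 and of Blvrb to Blvra within each library, with the group on the horizontal axis, points for the 4 libraries of each group, and the mean and SD. The Fth1 to Ftl1 ratio is 0.174 ± 0.0098 in vehicle and 0.298 ± 0.0388 in CCl4, and the Blvrb to Blvra ratio is 1.496 ± 0.245 and 0.953 ± 0.120.

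Tfrc, the transferrin receptor that brings transferrin-bound iron into cells, carries its elements in the 3′ UTR, shown here as the hairpins that set it apart from the ferritins. The same search found 4 in Tfrc-201, all on the plus strand of chromosome 16 in mm10. The 30 bases that hold each are printed 5′ to 3′ with the loop bases in capitals. They lie at chr16:32631219-32631248, chr16:32631598-32631627, chr16:32631663-32631692 and chr16:32631710-32631739 in that order.
Tfrc element 1: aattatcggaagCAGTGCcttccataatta
Tfrc element 2: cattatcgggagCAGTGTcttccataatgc
Tfrc element 3: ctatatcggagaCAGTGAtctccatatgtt
Tfrc element 4: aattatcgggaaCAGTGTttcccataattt
A match in a 3′ UTR was found in 100 of the 21877 genes (0.457%). The search ran over all 21877 genes. Matches are printed only for the 8 members with an entry in the RefSeq promoter table for the same genome. That leaves out Hmox1 and Slc40a1, so whether they hold a match is not shown here.

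Tfrc lies on chromosome 16, 32608920 to 32632794. It stood at 24.7, 22.8, 27.4 and 23.9 CPM in vehicle 1 to 4 and at 16.5, 19.7, 14.3 and 14.03 CPM in CCl4 1 to 4. All CCl4 libraries were below all vehicle libraries. Tfrc was 1.53-fold lower in CCl4, at 16.1 ± 2.61 CPM against 24.7 ± 1.94, a log2 difference of -0.61 (SE 0.15, edgeR adjusted p = 0.0175). The call was lost without vehicle 3 (adjusted p = 0.0645), CCl4 3 (0.0598) or CCl4 4 (0.0509). Dividing cells are known to raise this receptor, and 4 of 10 proliferation markers fell in CCl4, their sum ranging from 269.6 to 354.5 CPM in vehicle and from 139 to 293 in CCl4, a change whose part in the Tfrc result was not tested.

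The fall of Tfrc was not seen per length. The vehicle libraries, from 1 to 4, held 2.33, 0.709, 0.740 and 0.779 FPKM and the CCl4 libraries 1.10, 2.39, 0.290 and 1.12 FPKM, so the groups overlapped. The deposited transcript tables split the gene among several transcripts, among them the full-length Tfrc-201 of 4890 bases and a 166-base model, Tfrc-203. The latter was at 0 TPM in vehicle 2, vehicle 3 and CCl4 3. In vehicle 1, 597 estimated counts on Tfrc-201 gave 5.94 TPM, a transcript level per length, and 6 estimated counts on Tfrc-203 gave 6.98 TPM. Tfrc-201 alone stood at 5.94, 2.83, 6.51 and 6.23 TPM in vehicle 1 to 4 and at 4.04, 4.47, 2.69 and 3.50 TPM in CCl4 1 to 4. Vehicle 2 was the vehicle library that fell among the CCl4 values, and there 44.3% of the gene's counts were assigned to Tfrc-204, a retained-intron transcript. With counts rebuilt from TPM and length the log2 fold change of Tfrc was -0.19 (edgeR adjusted p = 0.741).

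Steap3, an endosomal reductase that converts ferric to ferrous iron, had the lowest mean level per length of the 10 in both groups and rose. In CCl4 its libraries overlapped those of Tfrc per length. The gene lies on the minus strand of chromosome 1, 120190757 to 120272705. It was at 5.0, 4.5, 6.6 and 8.0 CPM in vehicle 1 to 4 and at 13.0, 9.6, 18.1 and 16.1 CPM in CCl4 1 to 4. Every CCl4 library was above every vehicle library. The means were 6.04 ± 1.61 and 14.2 ± 3.69 CPM, a 2.34-fold rise (log2 fold change 1.23, SE 0.25, 95% interval 0.68 to 1.77, edgeR adjusted p = 0.00597). Tfrc and Steap3, which serve the same endosomal route of iron uptake, thus moved in opposite directions on the count scale.

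Per length, in FPKM, the members spanned a wide range. In vehicle the order was Ftl1 at 4556 ± 312, Fth1 at 795 ± 86.4, Slc40a1 at 281 ± 111, Hmox1 at 82.3 ± 27.3, Blvrb at 51.1 ± 7.09, Slc11a1 at 47.6 ± 16.9, Blvra at 34.5 ± 4.51, Cd163 at 28.6 ± 13.1, Tfrc at 1.14 ± 0.79 and Steap3 at 0.36 ± 0.12 (SD, n = 4). In CCl4 it was Ftl1 at 4491 ± 984, Fth1 at 1322 ± 225, Slc40a1 at 105 ± 25.4, Slc11a1 at 52.0 ± 8.57, Hmox1 at 37.2 ± 11.2, Blvra at 27.98 ± 5.07, Blvrb at 26.9 ± 7.51, Cd163 at 2.82 ± 1.17, Tfrc at 1.22 ± 0.87 and Steap3 at 0.88 ± 0.31. The ferritins and Slc40a1 kept the first places. The ranges of neighbours from Hmox1 to Cd163 overlapped in vehicle, as did those from Slc11a1 to Blvrb and from Cd163 to Steap3 in CCl4. Compared within each library, Hmox1 lay above Blvrb in every vehicle library. In every CCl4 library Slc11a1 lay above Hmox1, Hmox1 above Blvra and Cd163 above Tfrc. The order of the other overlapping neighbours differed between libraries and is not resolved.

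**Figure D4:**
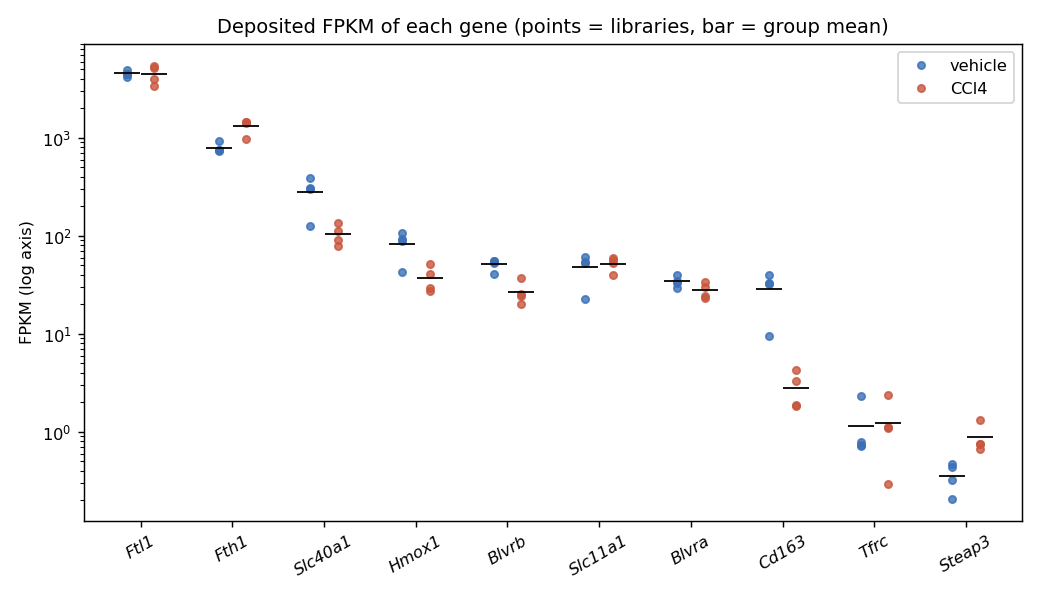
Deposited FPKM of the 10 genes on a log axis, with the genes in the order of their vehicle means with points for the 4 vehicle and 4 CCl4 libraries and a bar at each group mean. Levels run from Steap3, at 0.36 ± 0.12 in vehicle, to Ftl1, at 4556 ± 312.

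The deposited transcript estimates placed most of the TPM of Ftl1, Fth1 and Hmox1 on 1 transcript in both groups. Fth1-201, the transcript that carries the element shown above, held 92.3 to 94.3% of the TPM of Fth1 in vehicle and 95.1 to 96.0% in CCl4. Ftl1-201 held 96.3 to 97.1% and 96.0 to 98.2%, and Hmox1-201 held 95.1 to 98.1% and 96.4 to 97.4%. Slc40a1-201 held 86.1 to 93.1% and 91.3 to 94.0%. Cd163 was less uniform, since the retained-intron transcript Cd163-203 took 21.4 to 41.3% of its TPM in vehicle, the highest in vehicle 2, and 19.4 to 27.2% in CCl4. The reads were divided between overlapping transcripts by estimation, so these shares are estimates and were not tested.

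Beyond the members, 88 genes of 8 lists on the surrounding pathway were followed. Of the 84 tested, 11 rose and 12 fell, beside 8.93% higher and 6.26% lower among all genes tested. Their median log2 fold change was 0.08, and that of all genes tested was -0.03. Those described next are genes of each list that passed the test, up to the 3 with the largest change, and a list without a call in a direction is given with its counts at an unadjusted p under 0.05 and by DESeq2.

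Among genes of haem and haemoglobin uptake, carriage and export, 3 of 9 rose and 0 fell by edgeR (1 fell at an unadjusted p under 0.05 and 1 by DESeq2). Hp, which encodes the haemoglobin-binding plasma protein haptoglobin, rose from 31.8 ± 21.4 to 121 ± 34.2 CPM (log2 fold change 1.93, edgeR adjusted p = 0.00518). Flvcr1, a transporter first described as a haem exporter, rose from 12.1 ± 2.49 to 21.03 ± 3.71 CPM (0.80, adjusted p = 0.0149). Pgrmc1, a haem-binding membrane protein, rose from 68.8 ± 6.997 to 109 ± 21.2 CPM (0.66, adjusted p = 0.0181), a call lost without vehicle 3 or vehicle 4, at an adjusted p of up to 0.0518. The haptoglobin gene thus rose in the libraries in which Cd163, the receptor for its complex with haemoglobin, fell.

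Of 14 regulators, 3 fell and 0 rose by edgeR (3 rose at an unadjusted p under 0.05 and 2 by DESeq2). Spic, a transcription factor needed for the iron-recycling macrophages of the spleen, fell from 342 ± 70.5 to 101 ± 30.7 CPM (log2 fold change -1.75, edgeR adjusted p = 0.000364). Nr1h3, which encodes the sterol sensor LXR alpha, fell from 277 ± 43.8 to 142 ± 31.1 CPM (-0.97, adjusted p = 0.00499). Maf fell from 112 ± 39.5 to 64.6 ± 15.4 CPM (-0.80, adjusted p = 0.0491), a call lost in 6 of 8 removals of a single library, at an adjusted p of up to 0.169. Several regulators were looked up after their values were seen and did not pass: Nfe2l2, which encodes NRF2, an activator of Hmox1, was at 298 ± 53.7 and 345 ± 31.5 CPM (adjusted p = 0.462), and Bach1, a haem-sensing repressor of Hmox1, at 23.3 ± 6.12 and 28.7 ± 5.38 (0.379). The iron regulatory protein genes, chosen likewise, were at 91.2 ± 31.5 and 91.5 ± 19.0 CPM for Aco1 (0.994) and at 9.68 ± 1.35 and 13.1 ± 2.03 CPM for Ireb2 (0.133). Fbxl5 and Hif1a were chosen likewise and were higher in CCl4 without passing. Fbxl5 was at 73.7 ± 12.7 and 103 ± 5.75 CPM (edgeR adjusted p = 0.0560) and Hif1a at 67.5 ± 20.5 and 112 ± 22.2 CPM (0.0582).

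Of 14 other iron transport genes, 4 rose and 0 fell by edgeR, with 0 falling at an unadjusted p under 0.05 and 0 by DESeq2. Ltf, which encodes the iron-binding protein lactoferrin, rose from 4.77 ± 3.14 to 32.6 ± 16.0 CPM (log2 fold change 2.76, edgeR adjusted p = 0.00566). Lcn2, which encodes lipocalin 2, a binder of bacterial iron carriers, rose from 0.867 ± 0.548 to 5.21 ± 2.44 CPM (2.58, adjusted p = 0.00742). Slc39a14, a zinc transporter that also imports iron, rose from 7.69 ± 1.57 to 17.5 ± 4.49 CPM (1.18, adjusted p = 0.0034). Ltf and Lcn2 are stored in neutrophil granules, and 5 of 10 neutrophil markers rose in the same libraries, summing to 39.6 to 100.3 CPM with vehicle and 93.3 to 298 with CCl4. Their part in the rises of Ltf, Lcn2 and Hp was not tested. Trf, which encodes transferrin and was chosen after its values were seen, was at 4875 ± 815 and 4613 ± 1009 CPM (adjusted p = 0.846).

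Among genes of ferritin turnover and iron chaperones, Pcbp1, a chaperone that loads iron into ferritin, fell from 98.3 ± 8.50 to 69.6 ± 4.41 CPM (log2 fold change -0.50, edgeR adjusted p = 0.0212), a call lost in 5 of 8 removals of a single library, at an adjusted p of up to 0.0597. Ncoa4, the receptor that carries ferritin to lysosomes, chosen after its values were seen, was at 401 ± 96.4 and 374 ± 65.8 CPM (adjusted p = 0.806).

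Haem synthesis had 1 gene of 8 that rose and 2 that fell, at different steps. Alas1, the first and rate-setting enzyme outside red cells, rose from 52.2 ± 9.33 to 111 ± 37.9 CPM (log2 fold change 1.09, edgeR adjusted p = 0.00957). Cpox, an enzyme of the later steps, fell from 17.4 ± 1.96 to 9.75 ± 1.31 CPM (-0.84, adjusted p = 0.00448). Uros fell from 18.7 ± 1.75 to 13.4 ± 1.39 CPM (-0.48, adjusted p = 0.0465), lost in 7 of 8 removals at an adjusted p of up to 0.146.

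In the hepcidin axis, the signalling route by which liver cells set the hormone that degrades ferroportin, 3 of 9 genes fell and 0 rose by edgeR, with 0 rising at an unadjusted p under 0.05 and 0 by DESeq2. Id1, a target gene of BMP signalling, fell from 28.97 ± 7.11 to 10.9 ± 5.19 CPM (log2 fold change -1.41, edgeR adjusted p = 0.00708). The ligand gene Bmp6 fell from 1.87 ± 0.338 to 0.601 ± 0.298 CPM (-1.63, adjusted p = 0.0423), lost in 7 of 8 removals at an adjusted p of up to 0.123. The ligand gene Bmp2 fell from 37.6 ± 8.71 to 18.2 ± 6.29 CPM with overlapping groups (-1.05, adjusted p = 0.0161), lost without vehicle 4 or CCl4 2, at an adjusted p of up to 0.0524. Liver endothelial cells are the known source of both ligands, and 7 of 10 endothelial markers fell here and 1 rose. The endothelial sum ranged from 710.0 to 1114 CPM with vehicle and from 519.9 to 629.8 with CCl4, and it includes Fcgr2b, an Fc receptor gene that rose from 109.5 ± 20.9 to 319 ± 52.3 CPM while the 7 fell. The CD31- gate is meant to remove endothelial cells, and Pecam1, which encodes CD31, was at 73.8 ± 21.3 and 27.4 ± 2.86 CPM. The part of these markers in the fall of Bmp2, Bmp6 and Id1 was not tested. Hamp itself, which encodes hepcidin and was chosen after its values were seen, was near the floor of detection at 0.896 ± 0.574 and 1.55 ± 1.30 CPM (adjusted p = 0.468).

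Of 11 genes of red cell recognition and engulfment, 2 fell and 1 rose. Timd4, a receptor for phosphatidylserine on dying cells and also a Kupffer cell marker, fell from 586 ± 54.2 to 107 ± 34.2 CPM (log2 fold change -2.45, edgeR adjusted p = 5.44e-05). Stab2, a scavenger receptor that is also an endothelial marker, fell from 219 ± 75.1 to 82.4 ± 19.2 CPM (-1.41, adjusted p = 0.00502). Cd36, a scavenger receptor for lipids and dying cells, rose from 122 ± 22.6 to 551 ± 115 CPM (2.18, adjusted p = 5.98e-05). Among 10 NRF2 targets outside iron handling, 1 rose and 1 fell: Slc7a11, the cystine importer, rose from 9.58 ± 4.55 to 34.2 ± 14.8 CPM (1.83, adjusted p = 0.00766), and Gclm, a subunit of the enzyme that starts glutathione synthesis, fell from 33.1 ± 3.53 to 19.2 ± 2.77 CPM (-0.78, adjusted p = 0.00428).

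**Figure D5:**
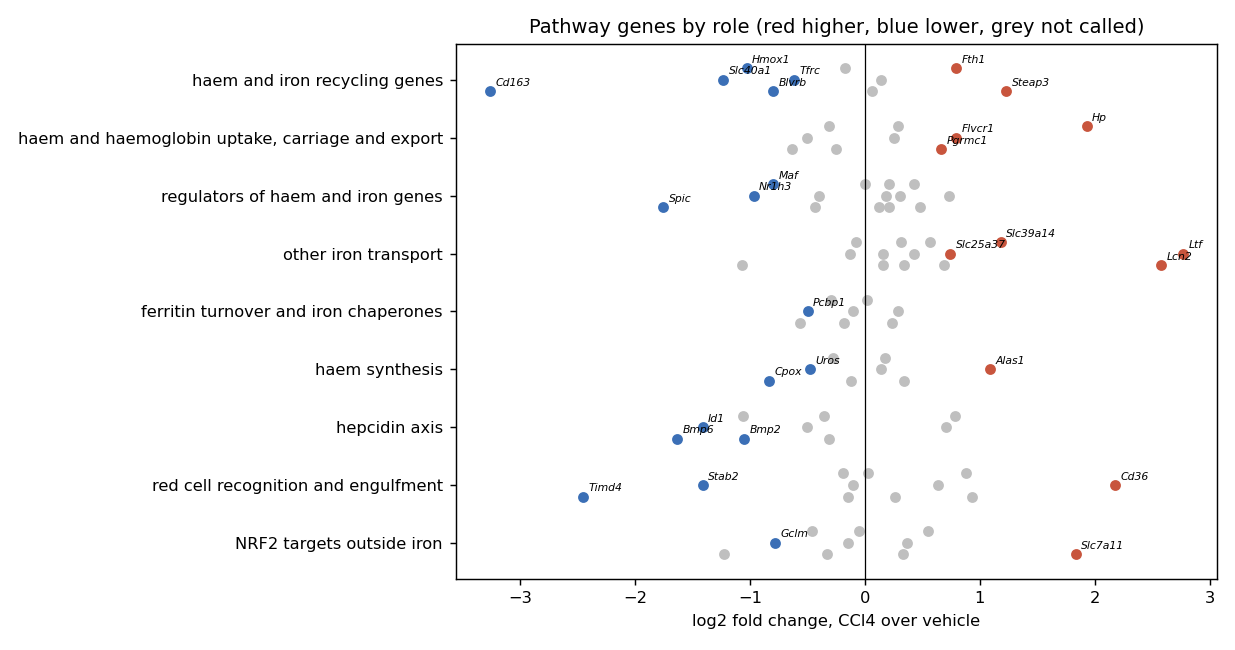
Log2 fold change, CCl4 against vehicle, of the 10 haem and iron recycling genes and of the tested genes of the 8 surrounding lists, 1 of them not drawn, with 1 row per list and points in red for genes that rose, blue for genes that fell and grey for genes that did not pass the edgeR test. The members hold 2 genes that rose and 5 that fell, and 11 and 12 of the 84 surrounding genes tested rose and fell. Among all genes tested 8.93% rose and 6.26% fell.

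Markers of other cells that carry haem and iron genes were read from the same libraries. Erythroid markers were low in both groups, 11 of the 12 listed being found and summing to 2.96 to 18.6 CPM with vehicle and 5.68 to 11.9 with CCl4. Hba-a2, an alpha globin gene, was at 2.35 ± 1.93 and 2.43 ± 1.89 CPM, and Klf1, an erythroid transcription factor gene, was at 0 in 4 of 8 libraries. By edgeR 0 of the 6 erythroid genes tested changed, with 0 at an unadjusted p under 0.05 and 0 by DESeq2. Hepatocyte markers summed to 117 to 214 and 81.8 to 149.5 CPM, 1 of 12 falling (Alb, 51.1 ± 2.83 to 29.6 ± 9.40 CPM, edgeR adjusted p = 0.0314). Stellate cell markers summed to 700.2 to 1535 and 512 to 749.5 CPM, 2 of 10 rising and 3 falling, and lymphocyte markers to 84.5 to 263 and 159.6 to 399.6 CPM. The lymphocyte sum was mostly Ighm, an antibody heavy chain gene (115 ± 57.9 and 195 ± 107 CPM), and by edgeR 0 of 9 lymphocyte genes tested changed (1 lower at an unadjusted p under 0.05 and 0 by DESeq2), with the median log2 difference at -0.36, opposite in sign to the sums. The mitochondrially encoded share of the counts was 1.91 to 5.31% in vehicle and 0.763 to 1.16% in CCl4, and with these genes left out the member calls were again 2 higher and 5 lower.

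The genes most like the 3 members with the largest changes were sought among the tested genes outside the members. The measure was the root-mean-square difference of centred log2 CPM over the 8 libraries. For Cd163 they were Sectm1a (0.43), Adcy4 (0.46) and Gpm6b (0.49). For Slc40a1 they were Sema6d (0.11), Amigo1 (0.12) and Ptgs1 (0.15), and for Steap3 they were Cd34 (0.16), Fads2 (0.17) and Ppm1f (0.18). The distances were larger for Cd163, but this measure also depends on the size of a gene's change, so they are not compared between members.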

How the data were processed

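RNA from 10 ng of input was amplified with SMART-Seq HT, per the labels' protocols, which name no strand-marking step. The authors deposited, for each of 8 libraries, transcript estimated counts and TPM (kallisto, per the submitters' processing notes, with mm10), and 1 table of FPKM per gene for which the sources used here give no recipe. Of 117494 transcripts, 116405 were matched by identifier to GENCODE M21, and estimated counts were summed per gene and rounded.

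Groups were compared with edgeR 4.0.16 in R 4.3.3 (quasi-likelihood test, two-sided, TMM, group as the sole term, minimum count 10 and minimum total 15). P-values were Benjamini-Hochberg adjusted over 15212 genes with a threshold of 0.05. CPM are TMM-scaled, except sums over marker lists, which are per library total. SE is the log2 fold change over the root of F. Alternatives used DESeq2 1.42.0, limma 3.58.1 and other settings. The fit was checked on simulated counts in which 200 genes were changed. It called 67% of the genes with a log2 change of 1 and 99% of those with a log2 change of 2. Of its calls, 7% were genes left unchanged.

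The members and lists were chosen with earlier results of these data known. Named genes include all members, up to 3 passing genes per pathway list with the largest change, and Adgre1, Ptprc and Csf1r. The highest gene of a marker list is named where it bears on a result. Other genes were named outside these rules, among them those said above to be chosen after their values were seen. Sequences were read from GENCODE M21 transcripts, with UTR limits and mm10 positions taken from the GENCODE M21 annotation. Ahsp was not analysed here, and some listed genes are not reported here.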

Additional observations from a re-analysis of the deposited data

How the results depend on the processing

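Cd163 kept its call and direction under all 22 alternatives, and Hmox1, Blvrb, Slc40a1, Fth1 and Steap3 under all but limma on log2(FPKM + 1) without a filter. That setting called 0 members higher and 1 lower (2 and 4 at an unadjusted p under 0.05; DESeq2 on counts called 2 and 5), with adjusted p-values of 0.143, 0.0607, 0.116, 0.111 and 0.120 for those 5, 1 and 4 surrounding pathway genes, and 335 and 315 of all genes. With a filter, log2(FPKM + 1) called 534 higher and 595 lower and log2(FPKM + 0.1) called 521 and 574, each with 7 pathway genes higher. DESeq2 called 17 pathway genes higher. Scaling by library size alone called 1431 genes lower and 43.1% of calls higher, against 58.8% with TMM and 47.5% with upper-quartile scaling, and moved the median of all genes from -0.03 to -0.16 (upper quartile: -0.12). Signs turned for Ftl1 at -0.086 (library size), -0.044 (upper quartile), -0.045 (all 3 FPKM settings) and -0.023 (without CCl4 3), for Slc11a1 at -0.0016 (library size) and -0.035 (without vehicle 2), and for Tfrc at 0.036 (log2(FPKM + 1), with and without a filter). Leaving out 1 library gave log2 fold changes of -0.023 to 0.16 for Ftl1 and -0.035 to 0.28 for Slc11a1, 1004 to 1503 genes higher and 578 to 1163 lower (578 without CCl4 1), 2 members higher and 4 to 5 lower, and 9 to 15 pathway genes higher and 8 to 12 lower. With the replicate block, 1281 genes were higher and 829 lower, with 2 members higher and 5 lower, and the calls of Bmp6 and Uros were lost. Same-numbered libraries deviated with correlations of 0.015, -0.24, 0.039 and -0.17, and none of the 4 matched its own number best. With 4 libraries per group these correlations cannot settle whether same-numbered libraries were prepared together. Depth limits genes near the floor, such as Hamp and Bmp6.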
